A study of Homo sapiens with 4 samples.

Results

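Ribosomal protein pseudogenes are dead copies of the genes that encode the proteins of the cytosolic ribosome. They were taken here as the RefSeq genes of biotype pseudogene on chromosomes 1 to 22, X and Y whose symbol starts with RPL or RPS and holds P followed by a number, such as RPS2P5. This gave 1958 of the 15580 RefSeq pseudogenes, from 79 parent genes, each of them a protein-coding gene of the same table. CUT&Tag, which cuts and tags DNA at an antibody's target, was used here on CHAF1A in RBE, a human cell line from a cancer of the bile ducts inside the liver. CHAF1A is the largest protein of the CAF-1 histone chaperone. The cells received a control siRNA (si-Ctrl, 2 samples) or an siRNA against CHAF1A (si-CHAF1A, 2 samples) and were harvested 48 hours after transfection. Both groups were transfected with Lipofectamine by one protocol. The knockdown samples are labelled CHAF1A-1 and CHAF1A-2, and the labels do not say whether these are separate siRNAs or repeats of 1. Each group is represented by 1 list of called peaks that does not keep its samples apart. No difference between the lists therefore has a replicate check, and none was tested.

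Most ribosomal protein pseudogenes are known as processed copies: a messenger RNA was reverse transcribed by the machinery of LINE-1 elements and inserted elsewhere in the genome. Such a copy has no introns and no promoter of its own, and its sequence is close to that of its parent's exons and of its sister copies. Ribosomal protein genes are known for their many copies of this kind. CAF-1 places new histones H3 and H4 on DNA behind the replication fork, and it is known for roles in keeping chromatin silent. Exons and strands of the copies were not used here, so a body may hold more than a processed copy. The bodies ranged from 25 to 14196 bp with a median of 536 bp, and 19 of them were 3 kb or longer. The longest was RPL7P21, inside the glucocorticoid receptor gene NR3C1.

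Promoter sequences are shown for 3 genes, as the 250 bases upstream of the RefSeq start (GRCh38.p14). RPSA and RPL21 are parent genes whose copies differed in how often they had a peak. The MCCD1 promoter is shown because a peak assigned to the copy RPL15P4 had its summit there. Capitals in RPSA and RPL21 mark the bases under the control peak, and capitals in MCCD1 mark the last bases of the RPL15P4 body.

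RPSA, chr3:39406470-39406719, plus strand: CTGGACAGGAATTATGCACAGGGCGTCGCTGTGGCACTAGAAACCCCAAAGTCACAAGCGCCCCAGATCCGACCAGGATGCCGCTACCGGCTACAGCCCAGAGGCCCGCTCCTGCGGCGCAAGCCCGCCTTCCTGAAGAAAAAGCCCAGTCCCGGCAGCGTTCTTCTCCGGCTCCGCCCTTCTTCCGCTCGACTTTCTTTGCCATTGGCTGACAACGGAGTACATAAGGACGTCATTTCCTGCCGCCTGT

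RPL21, chr13:27251308-27251557, plus strand: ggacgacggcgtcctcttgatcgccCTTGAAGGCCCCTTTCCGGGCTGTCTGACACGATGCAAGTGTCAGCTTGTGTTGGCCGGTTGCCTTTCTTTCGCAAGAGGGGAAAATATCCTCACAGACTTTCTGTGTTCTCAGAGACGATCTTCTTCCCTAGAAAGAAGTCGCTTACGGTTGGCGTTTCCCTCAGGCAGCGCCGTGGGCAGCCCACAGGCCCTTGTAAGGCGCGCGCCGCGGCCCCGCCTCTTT

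MCCD1, chr6:31528712-31528961, plus strand: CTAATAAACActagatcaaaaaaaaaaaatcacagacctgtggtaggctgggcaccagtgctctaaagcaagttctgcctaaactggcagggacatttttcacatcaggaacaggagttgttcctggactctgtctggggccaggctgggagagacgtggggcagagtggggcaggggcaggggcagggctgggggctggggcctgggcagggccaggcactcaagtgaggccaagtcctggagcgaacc

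The control peak covered all 250 bases of the RPSA window and 225 of those of RPL21. The RPL15P4 body reached 10 bases into the MCCD1 window. In all, 11 copies had a body that met a RefSeq promoter window. Besides RPL15P4, 1 of these had a peak, RPL18P9, whose peaks did not reach the window in its body. A search for the polyadenylation signal AATAAA on both strands found it at positions 3 to 8 of the MCCD1 window. These positions are counted from its 5′ end and lie within the capitals, and a run of 12 A began at position 18. Of all 35116 upstream windows in the RefSeq table, 16% held AATAAA on either strand and 1.84% a run of at least 12 A or T. Of the parents, 64 of 79 were matched in the promoter table and 0 of the 1958 copies.

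CHAF1A peaks were rare over these copies. The lists held 76313 control peaks over 32.1 Mb and 97653 siRNA peaks over 43.1 Mb. In the control list 40 of the 1958 copies (2.04%, 95% exact binomial interval 1.46 to 2.77) had a peak over their body by at least 1 bp, against 6.03% of all RefSeq pseudogenes. In the siRNA list 76 copies (3.88%, 3.07 to 4.83) had one, against 8.36% of all pseudogenes. A peak was present in both lists at 25 copies (1.28%, against 4.23% of all pseudogenes). Copies with a peak in the control list only numbered 15 (0.766%, against 1.8%), and in the siRNA list only 51 (2.60%, against 4.13%). Either list had a peak at 91 copies. All intervals cover counting error only. Copies of one parent share sequence, and the treatment of reads that match several copies was not stated in the sources used here.

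Shares were also compared within classes of body length. Among bodies of 500 to under 800 bp, 1.53% of ribosomal protein copies and 4.27% of the other pseudogenes had a control peak. Among bodies of 800 to under 1100 bp these shares were 4.8% and 4.84%, and in the siRNA list 10.5% and 7.68%. The 354 ribosomal protein copies of that length included 42 of RPS2 and 52 of RPSA. Without them, the shares were 1.15% in the control list and 3.08% in the siRNA list.

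**Figure D1:**
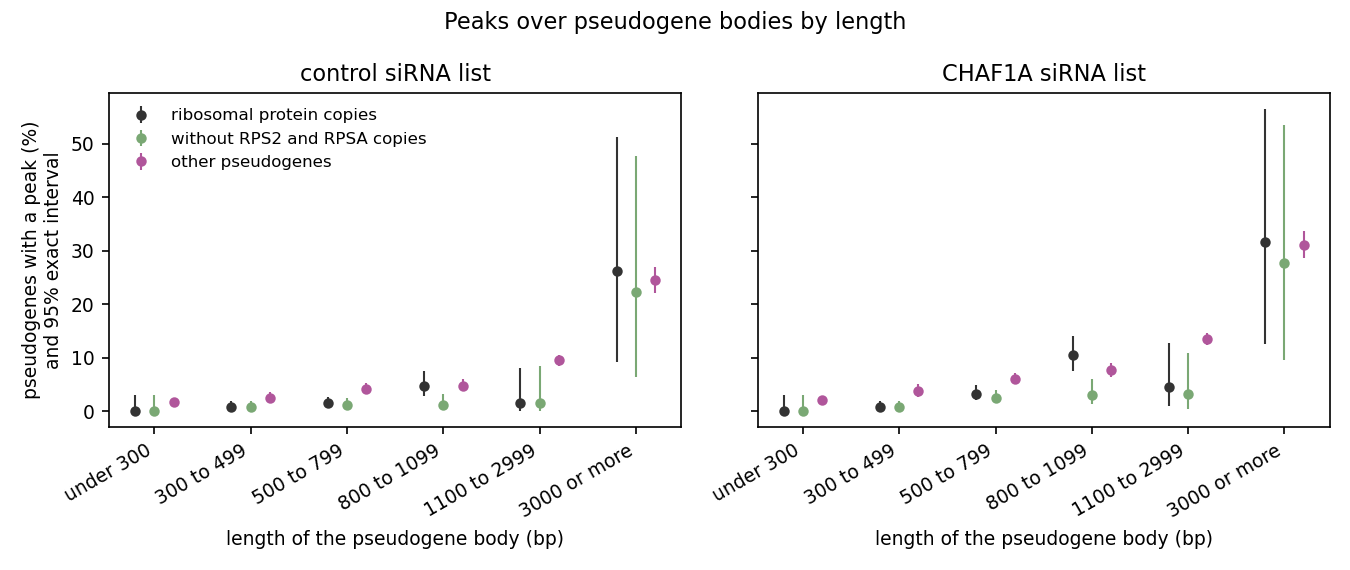
Share of pseudogenes with a peak over the body (y axis, percent, with 95% exact binomial intervals) by body length in bp (x axis), for all ribosomal protein copies, those without RPS2 and RPSA copies, and the other RefSeq pseudogenes, in the control list (left) and the CHAF1A siRNA list (right). At 800 to under 1100 bp all ribosomal protein copies stood at 4.8% and 10.5%, and without RPS2 and RPSA copies at 1.15% and 3.08%.

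Copies of 2 parents, both of the small subunit, held a large share of the peaks. RPS2 encodes a protein near the mRNA channel of the small subunit, and RPSA encodes a small-subunit protein also known as the laminin receptor. Together they have 126 of the 1958 copies (6.44%), and these made up 17 of the 40 copies with a control peak (42.5%) and 37 of the 76 with a siRNA peak (48.7%). Of 54 RPS2 copies, 9 had a control peak (16.7%, 7.92 to 29.3) and 22 a siRNA peak (40.7%, 27.6 to 55.0). Of 72 RPSA copies, 8 had a control peak (11.1%, 4.92 to 20.7) and 15 a siRNA peak (20.8%, 12.2 to 32.0). Over the copies of all other parents the shares were 1.26% (0.797 to 1.88) and 2.13% (1.52 to 2.90). By length, peaks covered 4.52% and 8.97% of the summed bodies of RPS2 and RPSA copies and 0.497% and 0.963% of those of the other parents. The 2 parents were singled out after these shares had been seen, so the contrast is a description.

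**Figure D2:**
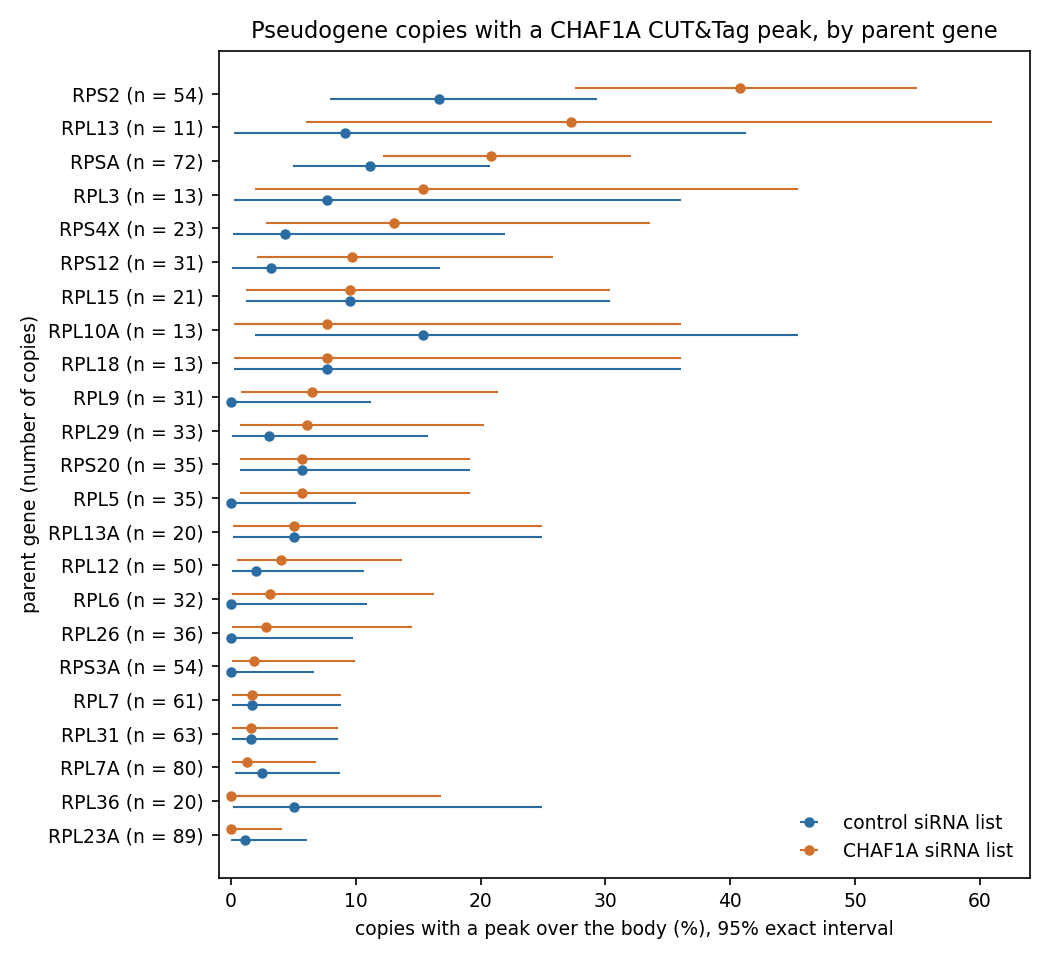
Share of copies with a peak over the body (x axis, percent) for each parent gene with at least 10 copies and at least 1 peak in either list (y axis); points are shares in the control list (blue) and the CHAF1A siRNA list (orange), and bars are 95% exact binomial intervals. RPS2 led both lists, at 16.7% and 40.7%, RPSA stood at 11.1% and 20.8%, and RPL23A and RPL7A, which have more copies, were at or under 2.50%.

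The parent with the most copies had none with a peak. RPL21, a large-subunit protein gene, has 135 copies, and 0 had a peak in either list, which the exact interval bounds at 2.70%. RPL23A (89 copies), the next, had 1 copy with a control peak and 0 with a siRNA peak. RPL7A (80 copies) had 2 and 1. Among the 55 parents with at least 10 copies, 32 had no copy with a peak in either list, together 902 copies. The largest of these after RPL21 were RPS26 (58 copies), RPL17 (52) and RPL36A (52). RPS3A, a small-subunit gene with 54 copies, the same number as RPS2, had 0 copies with a control peak and 1 with a siRNA peak.

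By control share, the parents after RPS2 were RPL10A (2 of 13 copies, 15.4%, 1.92 to 45.4), RPSA, and RPL15 (2 of 21, 9.52%, 1.17 to 30.4). Both RPL10A copies concerned, RPL10AP8 and RPL10AP10, have bodies over 3 kb, at 9175 and 10310 bp. In the siRNA list RPL13 had 3 of 11 copies (27.3%, 6.02 to 61.0). These small families have intervals that overlap those of RPS2 and RPSA, so their order is not resolved. In all, 21 parents had a copy with a control peak, 15 of them through 1 copy only, and 25 parents had a copy with a siRNA peak, 10 of them through 1 copy.

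The split by ribosomal subunit followed the same families. Of 683 small-subunit copies, 3.37% had a control and 7.61% a siRNA peak, against 1.33% and 1.88% of 1275 large-subunit copies. Without RPS2 and RPSA the small-subunit shares were 1.08% (0.396 to 2.33) and 2.69% (1.51 to 4.40), whose intervals overlap those of the large subunit (0.779 to 2.13 and 1.21 to 2.79).

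Parents were also compared over copies of like length. From 800 to under 1100 bp, RPS2 had a control peak at 8 and a siRNA peak at 17 of 42 copies, and RPSA at 6 and 12 of 52. In the same length range RPL7A had 1 and 0 of 47 copies, RPS3A 0 and 1 of 36, RPL7 0 and 0 of 32, RPL5 0 and 2 of 27, and RPL6 0 and 1 of 22. RPL7A, RPL7, RPL5 and RPL6 are large-subunit genes. RPS4X, a small-subunit gene on the X chromosome, had 0 and 2 of 18. Parents with few copies of this length reached shares like those of RPSA, with 1 and 1 of 8 RPL15 copies (12.5%) and 1 and 1 of 5 RPL13A copies (20%). The remaining parents had none with a peak.

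Most peaks had their highest point on the copy itself. In the control list the summit, the position of highest signal, lay inside the body at 37 of 40 copies, and 32 of the peaks lay wholly inside. In the siRNA list this held for 67 and 65 of 76. All 9 control summits at RPS2 copies and all 8 at RPSA copies were inside. In bodies shorter than 3 kb, shares were taken per 200-bp bin and averaged. For the 125 RPS2 and RPSA copies the mean share with a control peak was 10.8% over the 2 central bins. It was 1.60% over bins 2 to 5 kb away, and in the siRNA list the means were 22% and 1.55%. Copies of the other parents showed the opposite. Over these 1814 copies the mean share with a control peak was 0.910% in the central bins against 1.88% in the flanks. For siRNA peaks the means were 1.41% against 2.60%. For the pseudogenes of other genes the means of the central bins were above those of the flanks, at 2.81% against 1.89% and 4.23% against 2.53%.

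**Figure D3:**
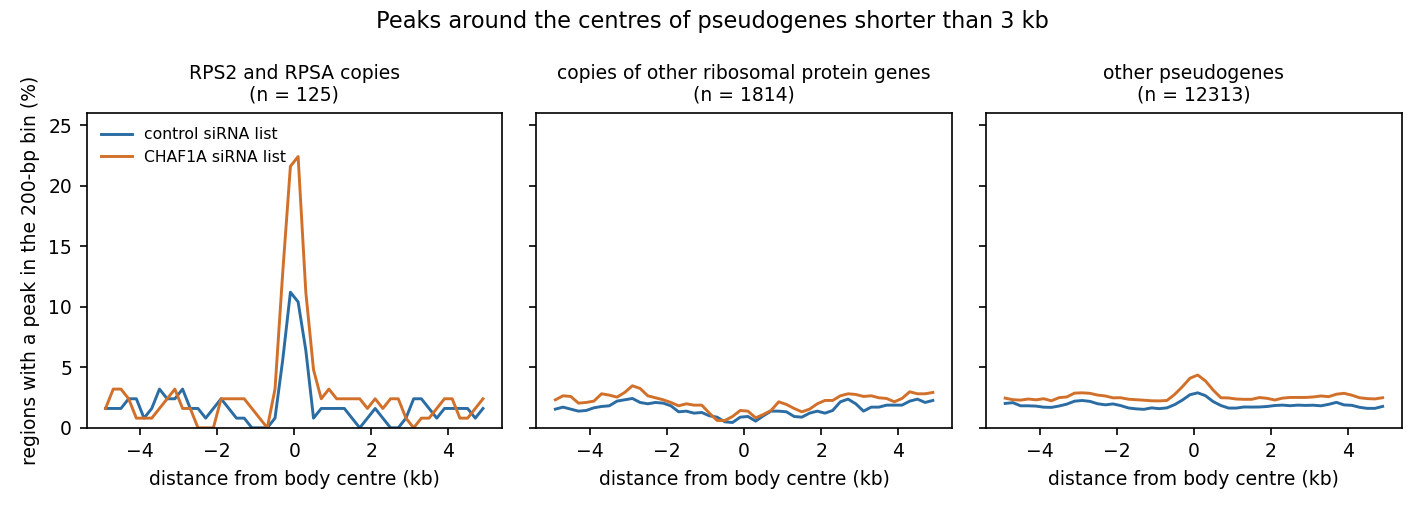
Share of regions with a peak in each 200-bp bin (y axis, percent) by distance from the centre of the body (x axis, kb) for RPS2 and RPSA copies, copies of the other ribosomal protein genes, and other pseudogenes, all shorter than 3 kb; lines are the control list (blue) and the CHAF1A siRNA list (orange). The mean of the central bins stood at 10.8% and 22% for RPS2 and RPSA copies, and under that of the flanks for the copies of other ribosomal protein genes.

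Within the RPS2 copies some summits lay at nearly the same distance from an end. Positions are distances to the nearer end of the body, since strands were not used here. In the siRNA list the 15-bp window with the most summits began at 383 bp and held 6 of the 21 summits inside RPS2 copies. The exact distance was 384 bp at RPS2P29, RPS2P47, RPS2P20 and RPS2P35, 383 bp at RPS2P23 and 387 bp at RPS2P10. These 6 copies lie on chromosomes 6, 17, 4, 9, 5 and 1. For 4 of them the nearer end was the one with the lower coordinate and for 2 the one with the higher. In the control list 1 of 9 summits lay in that window, at RPS2P5. All siRNA summits in RPS2 copies ranged from 165 to 455 bp and the control summits from 108 to 418 bp. At RPSA copies the densest window held 4 of 14 siRNA summits (RPSAP6, RPSAP76, RPSAP47 and RPSAP17) and 2 of 7 control summits (RPSAP47 and RPSAP12). The window rule was chosen after the positions had been seen, and windows picked for their summits are a description only.

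**Figure D4:**
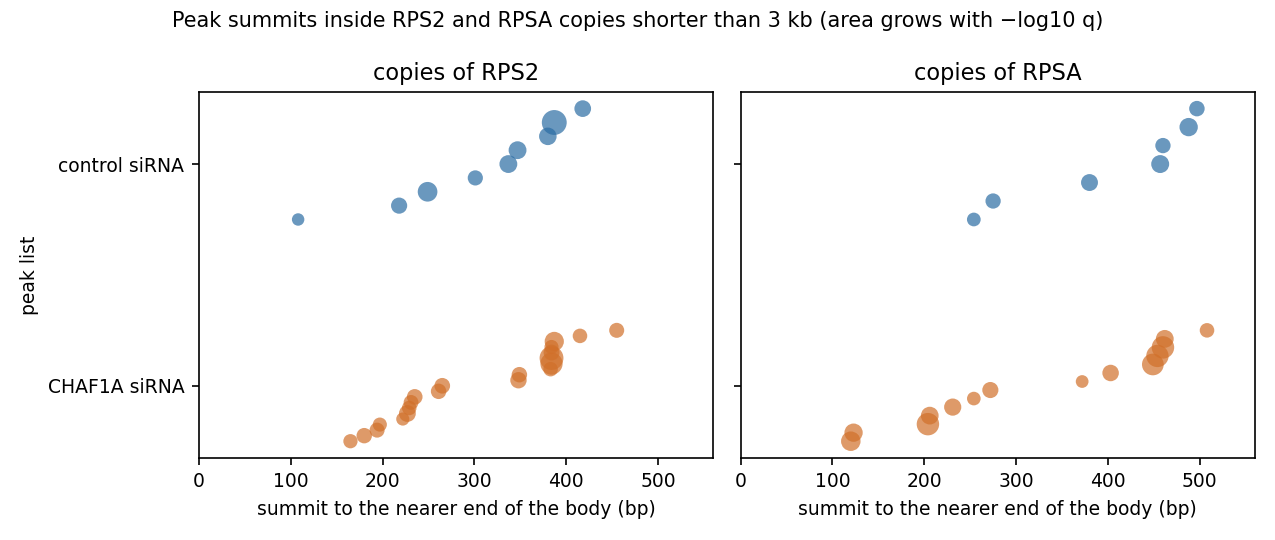
Distance from the peak summit to the nearer end of the body (x axis, bp) for RPS2 copies (left) and RPSA copies (right) shorter than 3 kb, in the control list (blue) and the CHAF1A siRNA list (orange); each point is 1 copy, spread vertically for view, with an area that grows with −log10 q. In the siRNA list 4 RPS2 copies share the distance of 384 bp, with a further 2 within 3 bp of it.

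The peaks over the copies had about the median fold of their lists and a lower −log10 q. Fold enrichment is the authors' ratio of the pileup of reads at the summit to its background, and −log10 q is their significance for the peak. The control peaks had a median fold of 3.64 (2.66 to 7.35), against 3.72 over all control peaks, and a median −log10 q of 7.30, which was above 34.7% of all control peaks. The siRNA peaks had a median fold of 3.16 (2.40 to 4.85), against 3.19 over all siRNA peaks, and a median −log10 q of 6.83, above 34.1% of them. The families differed in this. RPS2 copies had a median −log10 q of 9.49 in the control list, above 48.6% of its peaks, and of 6.83 in the siRNA list. RPSA copies had medians of 7.76 and 9.87, the latter above 59.7% of all siRNA peaks. Copies of the other parents had the lowest medians, 6.51 and 5.80, above 26.5% and 22% of the peaks. Pileups recovered from these values were 21 to 66 reads for control peaks and 24 to 78 reads for siRNA peaks. The background at the summit was that of the whole genome at 25% of the control and 50% of the siRNA peaks, against 18.2% and 24.0% of all peaks solved.

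The strongest peaks of copies in both lists belonged to several parents. RPS20P18, a copy of a small-subunit gene inside CDK19 (chromosome 6, 110700444 to 110700923), had a fold of 7.35 from a pileup of 53 reads in the control list (peak 110700468 to 110700999, −log10 q 27.7). In the siRNA list it had a fold of 3.48 from 32 reads. RPS4XP10 (chromosome 8, 94352921 to 94353715), outside protein-coding genes and 18245 bp from RAD54B, had folds of 6.49 (control) and 4.53 (siRNA). Both copies thus had the higher fold in the control list.

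RPS20P29, another RPS20 copy, lies inside SLC2A14, a sugar transporter gene (chromosome 12, 7860449 to 7860764). Its control peak, 7860090 to 7860788, was wider than the copy itself and had a fold of 5.73, against 4.15 in the siRNA list. RPS2P5 lies inside the kinase gene TAOK3 (chromosome 12, 118246061 to 118247002). Its control peak spanned 118246399 to 118246780 with a fold of 6.4 from 46 reads, and its siRNA peak spanned 118246611 to 118246805 with 3.58 from 33 reads. RPSAP30, 9832 bp long, had folds of 3.74 and 2.66 over backgrounds of 16.9 and 24.9 reads, well above those of the whole genome (6.34 and 8.49).

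RPL15P4 (chromosome 6, 31528072 to 31528721) is the copy that ends in the MCCD1 promoter window. Its control peak spanned 31528460 to 31529001 with a fold of 4.14, and its siRNA peak spanned 31528668 to 31528961 with a fold of 2.82. Both summits, at 31528901 and 31528879, lay past the end of the copy and inside the MCCD1 window printed above. The signal there was thus centred on the neighbouring promoter and not on the copy. It is 1 of 2 copies with a siRNA peak and the only copy with a control peak that lie within 1 kb of a protein-coding gene boundary.

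Of the 25 copies with a peak in both lists, 18 had the lower fold in the siRNA list and 7 the higher, with medians of 3.64 and 3.37. Among all 47987 pairs of overlapping peaks the siRNA peak had the lower fold in 72.5%, so the copies were close to the lists as a whole. RPSAP47 (chromosome 8, 80558794 to 80559827) and RPSAP16 (chromosome 1, 179968595 to 179969581) were among those with the higher siRNA fold, at 4.83 against 4.14 and 4.52 against 4.41. The fold depends on the depth of each list, so these differences are not read as a change in binding.

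**Figure D5:**
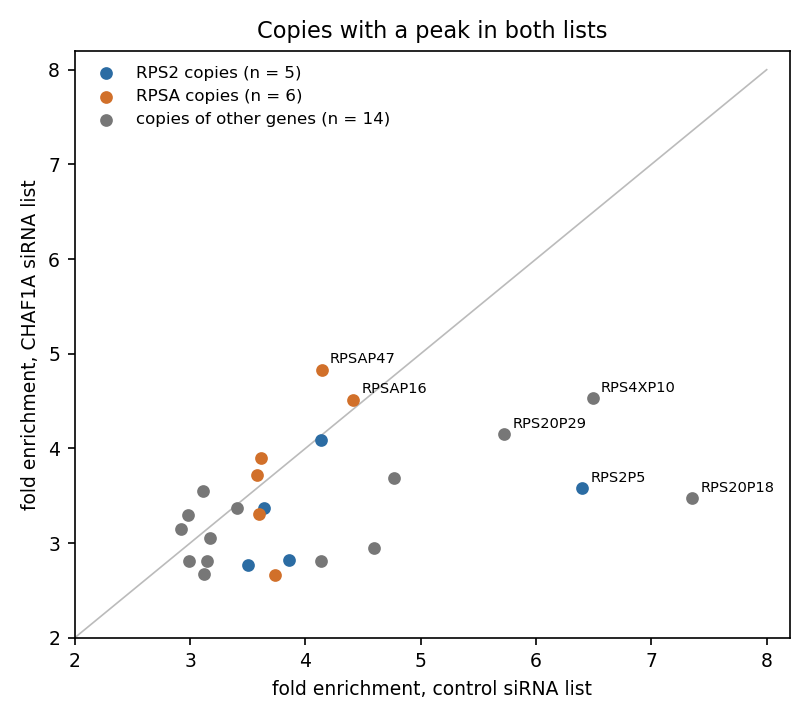
Fold enrichment in the control list (x axis) and in the CHAF1A siRNA list (y axis) for the 25 copies with a peak in both; points are copies of RPS2, RPSA or other parents, and the line marks equal values. RPS20P18, RPS2P5, RPS4XP10 and RPS20P29 lie far below the line, and 18 of the 25 copies lie below it.

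The copies with a control peak only had folds from 2.66 to 4.49. The highest −log10 q was that of RPL36P11, a copy of a large-subunit gene inside TMCO6 (chromosome 5, 140609085 to 140609403), with a fold of 4.49 from 32 reads and a −log10 q of 10.5. It was followed by RPS2P46 on chromosome 17 (fold 3.86, −log10 q 9.88), RPS2P45 inside TANGO6 on chromosome 16 (3.89, 9.49) and RPS2P33 on chromosome 8 (3.86, 8.35). RPL10AP8 on chromosome 5 (3.95, 7.85) and RPSAP21 inside MTR on chromosome 1 (3.68, 6.61) came next. Of these 6, 4 were copies of RPS2 or RPSA.

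Copies with a siRNA peak only were led by RPS2 and RPSA as well. RPSAP76 (chromosome 9, 125194597 to 125195893) had a fold of 3.36 from 78 reads over a background of 22.5 reads, with a −log10 q of 16.9. RPS2P47 lies inside CDC27, a gene of the anaphase-promoting complex (chromosome 17, 47159154 to 47159998), and had a fold of 4.65 from 50 reads. RPSAP6 lies inside ADK, the adenosine kinase gene (chromosome 10, 74371465 to 74372486), and had a fold of 4.85 from 45 reads over the background of the whole genome. RPS2P10 (chromosome 1, fold 3.57) and RPL13P6 inside CDC42BPB (chromosome 14, fold 3.48) followed.

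RPS2P37 on chromosome 11 had a siRNA peak (62012557 to 62013768, fold 3.46) that only touched the last 92 bp of the copy and overlapped a control peak beyond it. Signal at that place was thus called in both lists, though the copy counts under the siRNA list. The other siRNA-only peaks ranged down to a fold of 2.40 at RPS2P52, and the median −log10 q of this class was 5.80, against 7.86 for the siRNA peaks of copies with a peak in both lists.

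The siRNA list held 1.90 times as many copies with a peak as the control list, against 1.39 times for all pseudogenes and 1.28 times for all peaks. The ratio was 2.44 for RPS2, 1.88 for RPSA and 1.70 for the other parents. With equal numbers of peaks per list there were 40 control and 51 siRNA copies, and with −log10 q of at least 10 there were 12 and 14. In the first setting RPS2 had 9 and 18 of these and RPSA 8 and 13. In the second RPS2 had 2 and 4 and RPSA 3 and 6. The other parents had fewer siRNA than control copies in both settings. The background recovered for the siRNA list was 8.49 reads against 6.34. With the siRNA pileups thinned to the control background, 65 siRNA copies had a peak, 20 of RPS2 and 14 of RPSA. The siRNA copies of the other parents then still outnumbered their control copies. The part of depth in the excess was otherwise not tested.

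Sharing between the lists was counted by peak and by copy. Of the strongest control peaks at each copy, 22 of 40 (55.0%) were overlapped by a siRNA peak, against 61.9% of all control peaks. Of the siRNA peaks, 23 of 76 (30.3%) were overlapped by a control peak, against 47.5%. By gene, 62.5% of copies with a control peak also had a siRNA peak and 32.9% of copies with a siRNA peak had a control peak, against 70.2% and 50.6% for all pseudogenes. The difference was not tested.

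Copies lying wholly in a protein-coding gene were compared with those outside. Of 751 copies inside, 20 (2.66%, 1.63 to 4.08) carried a control and 35 (4.66%, 3.27 to 6.42) a siRNA peak, against 4.13% and 5.85% of all pseudogenes inside such genes. Outside were 1205 copies, of which 20 (1.66%, 1.02 to 2.55) and 41 (3.4%, 2.45 to 4.59) had one, against 6.68% and 9.22%. The other 2 copies lay partly in a gene and had none. Inside, 11 copies (1.46%) had a peak in both lists, 9 (1.20%) in the control list alone and 24 (3.20%) in the siRNA list alone. Over all pseudogenes inside, these shares were 2.6%, 1.52% and 3.25%. Outside, the copies numbered 14 (1.16%), 6 (0.498%) and 27 (2.24%), against 4.76%, 1.91% and 4.45% of all pseudogenes outside. The intervals inside and outside overlap in each list.

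The families were then taken apart. Of 30 RPS2 copies inside genes, 7 carried a control and 16 a siRNA peak (53.3%, 34.3 to 71.7), and of 24 outside, 2 and 6 (25%, 9.77 to 46.7). Of 15 RPSA copies inside, 4 carried a control and 3 a siRNA peak, and of 57 outside, 4 and 12. For the other parents the shares inside and outside were 1.27% and 1.25% for control peaks and 2.27% and 2.05% for siRNA peaks. The direction for RPSA thus differed between the lists, with 26.7% against 7.02% for control peaks and 20% against 21.1% for siRNA peaks.

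The copies with a peak were spread over the genome. Chromosome 6 had 6 control and 13 siRNA copies of 132, and chromosome 8 had 6 and 4 of 93. Chromosome X, with 70 copies of which 9 are of RPS2 or RPSA, had 0 in either list. Chromosomes 15, 22 and Y, with 51, 32 and 4 copies, also had 0 in either list. Shares of all pseudogenes on single chromosomes are not given here, so these counts are a description only.

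Peaks at the parents' own genes did not follow the copies. Of the 79 parents, 71 had a control and 72 a siRNA peak on the gene or within 1 kb, with a median fold of 6.00 and 5.16. The share of all protein-coding genes with such a peak is not given here, so these counts are not read as particular to the parents. RPS2 (chromosome 16, 1962058 to 1964826) had folds of 9.22 and 7.46 and RPSA (chromosome 3, 39406720 to 39412542) 7.01 and 5.50. RPL23A had 10.7 and 8.97 and RPL21 5.14 and 4.61, although few or 0 of their copies had a peak. Each of these parent peaks lay at a gene boundary, in RPSA over the whole promoter window printed above.

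As a check of the label RBE, the 4 cholangiocyte markers KRT19, KRT7, SOX9 and EPCAM had a peak on the gene or within 1 kb in both lists, and the hepatocyte markers ALB, APOA1 and TTR had 0 of 3. A peak at a gene does not measure its expression. The share of all genes with such a peak is not given here, so these few markers do not establish the label.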

How the data were processed

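CHAF1A CUT&Tag peak lists of the control and CHAF1A siRNA groups were analysed, assigned by the file labels NC and si, a partial match to the titles. The submitters' processing notes list MACS2 2.1.2, deepTools 3.4.3, Bowtie2 2.2.5 and fastp 0.20.1, and hg38 as the build. The pooling of samples and any background library were not stated in the sources used here. The deposited fold enrichment is a linear ratio, the p-value and q-value of each peak are deposited as −log10, and the deposited score, 10 times −log10 p cut to a whole number, was not used. Positions are printed counting from 1.

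The autosomes, X and Y held 76313 control and 97653 siRNA peaks; others were left out. Genes came from RefSeq GRCh38.p14. An overlap of 1 bp counted. Pileup and background were solved from fold, taken as (pileup + 1)/(background + 1), and the Poisson p, for 99.1% and 99.2% of peaks; read totals were not used here. Overlap and recovery were tested on simulated data. The copies, families and lists were chosen with earlier results of these data known. Named were the 6 copies with the highest −log10 q in each class (both lists, control only, siRNA only). Also named were the 3 highest in each class that lie over 1 kb from a protein-coding gene boundary. Among parents, the 4 with most copies and those with the highest and lowest control shares were named. Others named here were chosen after their values were seen. Alternatives were stricter −log10 q, equal numbers of peaks, stricter overlap, neighbouring genes left out, thinning of the siRNA pileups (1 seed), another definition of inside and, added after seeing the data, long copies left out. With a single list for each group, no test was made. Intervals are exact (Clopper-Pearson) at 95%. Software was matplotlib 3.10.9, scipy 1.17.1, pandas 2.3.3, numpy 2.4.6 and Python 3.11.15. The cholangiocyte and hepatocyte markers are given with their result in the report; 1 further marker list is not reported here.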

Additional observations from a re-analysis of the deposited data

How the results depend on the processing

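Of 103 values recomputed, 87 stayed within 1.5 times the reported count. Most of the 16 that moved did so with −log10 q of at least 10, which left 12 control and 14 siRNA copies, 5 of them in both lists, 7 with a control peak alone and 9 with a siRNA peak alone. Inside protein-coding genes 7 control and 7 siRNA copies then remained, and outside 5 and 7. RPS2 kept 2 control and 4 siRNA copies and RPSA 3 and 6. At a −log10 q threshold of 5, copies with a control peak alone numbered 9. With equal numbers of peaks per list, copies with a siRNA peak alone numbered 30 and siRNA copies inside genes numbered 22. Under the other settings (50% overlap, summit inside the body, copies near gene boundaries or of 3 kb or longer left out, thinning, partial overlap of a gene) no count moved by more than 1.5 times. The lowest pileup of a control peak over a copy was 21 reads, at RPL3P9, and the lowest −log10 q was 3.62, at RPS2P43. No paired analysis was possible because each group has 1 peak list that does not keep replicates apart, and for the same reason no replicate could be left out.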

Other observations

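Processed copies of other abundant genes also differed from family to family. Of 733 copies from 20 families, 37 (5.05%, 3.58 to 6.89) had a control and 70 (9.55%, 7.52 to 11.9) a siRNA peak. Copies of the cytoskeletal genes ACTB, KRT8 and KRT18 (beta actin and the paired keratins of simple epithelia) numbered 132 and made up 27 of the control and 50 of the siRNA copies. ACTB had 7 and 10 of 14 copies, KRT18 11 and 27 of 67, and KRT8 9 and 13 of 51. No copy had a peak in either list in 10 of the families, 349 copies in all, among them PPIA (85 copies), HMGB1 (50) and NPM1 (50). EEF1A1 had 3 and 4 of 50 copies and GAPDH 4 and 7 of 65. The keratin and actin copies are longer than those of RPS2 and RPSA, with median bodies of 1388 bp for KRT18, 1728 bp for KRT8 and 1744 bp for ACTB. HSPD1 copies, at a median of 1824 bp, had 0 of 22 in either list. The copies of the 20 families had a median body of 1163 bp, against 536 bp for the ribosomal protein copies. From 500 to under 800 bp, 0.671% had a control and 1.34% a siRNA peak, against 1.53% and 3.34% of ribosomal protein copies. From 800 to under 1100 bp these were 3.06% and 2.04%, against 4.8% and 10.5%. From 1100 to under 3000 bp they were 8.09% and 16.4%, against 1.52% and 4.55%. The direction thus differed between length classes. Without RPS2 and RPSA copies, the ribosomal protein shares were 1.29% and 2.58% from 500 to under 800 bp. From 800 to under 1100 bp they were then 1.15% and 3.08%. The classes hold different families, and the part of length apart from family was not tested.

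The 31 RPL and RPS pseudogenes that RefSeq calls transcribed were outside the 1958 copies. In each list 9 of them (29.0%, 14.2 to 48.0) had a peak, against 44.6% and 50.2% of all 1265 transcribed pseudogenes. Their gene models have a median length of 1041 bp, against 9008 bp for all transcribed pseudogenes. They reach 68955 bp at RPSAP52, whose peaks had folds of 4.95 and 5.10. RPL23AP82 on chromosome 22 had the highest control −log10 q of these, 40.4, with a fold of 7.40, and 4.74 in the siRNA list. Copies of RPL23A made up 4 of these 9 in each list (RPL23AP82, RPL23AP7, RPL23AP53 and RPL23AP87), while 1 of its 89 other copies had a control peak. The gene models of the 4 are 13908 to 42552 bp long, against a median of 525 bp for the 89. RPL23AP82, RPL23AP53 and RPL23AP7 also lie within 7 bp of a protein-coding gene boundary, so the contrast is not one of like regions.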
